A study of Drosophila melanogaster with 12 samples.

Results

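The regions described here are 979 wide, isolated binding sites of the Drosophila melanogaster protein Phaser (CG7372) on the large autosomal arms. They lie outside the peaks of a second protein, Saft (CG11247). They were chosen from the 5299 peaks of Phaser replicate 1 and make up 18.5% of that list. On arms 2L, 2R, 3L and 3R lay 4635 of its peaks, of which 3259 overlapped a replicate 2 peak by 1 bp or more. Of these, 3051 touched no peak in any of the 4 Saft lists, and 2715 had no summit of another such reproducible peak within 1000 bp. Isolation concerned summits alone, so the edges of neighbouring regions could nearly meet, as at chr2R:17586579-17587323 and chr2R:17587383-17588481. The last step kept peaks of 600 bp or more in replicate 1, which were 36.1% of the 2715. The other 1736 are called isolated narrow sites below, and the 336 peaks that failed on distance are called clustered sites.

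The cells were S2, an embryo-derived Drosophila line, in which every copy of the endogenous Phaser or Saft gene carried a FLAG tag fused to AID, an auxin-inducible degron. All lines also carried OsTir1, the plant receptor through which auxin can degrade AID fusions, and no depletion was done. Phaser (genotype OsTir1, Phaser_FLAG-AID) was mapped in 1 clone, 8D, and Saft (OsTir1, Saft_FLAG-AID) in clones 9C and 4H, each with 2 biological replicates and matching inputs. The 12 samples comprised 6 anti-FLAG ChIP libraries, each with its own peak list, and 6 input libraries. With a single Phaser clone, a feature of that clone and a feature of Phaser cannot be told apart, and no list from untagged cells was used here.

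Silencers are stretches of DNA that lower the transcription of genes they act on, and the series belongs to a study that screened the genome for them. Such elements work through proteins that recognise short DNA sequences, and the labels call Phaser and Saft transcription factors. RefSeq lists CG7372 under the symbol Phs as a protein-coding gene. ChIP-seq sequences the DNA fragments that come down with a protein, so that a bound place stands out as a pile of reads whose highest point is the summit. Peak width is the stretch over which the pile stays above the caller's threshold, and it therefore depends on how high the pile is as well as on how far it spreads. All positions are dm3 coordinates, and the regions are named by position alone because no dm3 annotation or sequence was used here.

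Width, the property that chose the regions, ran from 600 to 3406 bp in replicate 1, with a median of 810 bp and quartiles of 691 and 1023 bp. Of the 979 regions, 260 (26.6%) were 1000 bp or wider and 20 (2.04%) were 2000 bp or wider, where the shares over all 3259 reproducible autosomal peaks were 9.33% and 0.675%. The limit fell in a continuous range. At the limit, 4 regions were 600 bp wide. The 3 of them with the best mean rank of −log10 q were chr3L:7688601-7689200, chr3L:21986608-21987207 and chr2L:9200495-9201094. Their fold enrichment in replicate 1 was 8.46, 9.16 and 7.31. Just outside it, 4 isolated narrow sites were 598 bp wide, and the best 3 by that rank were chr3L:8763794-8764391, chr3L:20181680-20182277 and chr2R:17926566-17927163, with fold enrichment of 9.04, 5.04 and 3.19.

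In replicate 2, whose widths the rule did not use, the regions were narrower but remained among the wider sites. The median width there was 639 bp, with quartiles of 507 and 825 bp and a range of 167 to 2954 bp. The mean of the 2 medians was 725 ± 121 bp (SD, n = 2 replicates). The rule bounded the replicate 1 widths at 600 bp and not those of replicate 2, so this SD is not spread between replicates alone. Of the 979 regions, 552 (56.4%, 95% Wilson interval 53.3 to 59.5) were also 600 bp or wider in replicate 2, where the share over all reproducible autosomal peaks, these regions included, was 21.6%. The share was 1.32% (23 of 1736) for isolated narrow sites, which the rule kept under 600 bp in replicate 1, and 31.0% (104 of 336) for clustered sites. Replicate 1 gave the wider peak in 898 regions (91.7%), against 81.9% of all reproducible autosomal peaks, and since the regions were chosen by replicate 1 width nothing is read from that difference. The intervals treat regions as independent draws and cover counting error only, and no test was run between groups of regions.

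Replicate 1 reached past replicate 2 to a similar extent on both sides. Its peaks began a median of 74 bp before those of replicate 2 and ended a median of 70 bp after them. Over all reproducible autosomal peaks these medians were 39 and 38 bp, and the regions were chosen by replicate 1 width. Replicate 2 peaks covered a median of 80.3% of the replicate 1 width, with quartiles of 67.8% and 89.2%. That median was 79.3% over all reproducible autosomal peaks and also for isolated narrow sites. When the replicates changed places, so that width and isolation were judged in replicate 2, 562 regions qualified. Of these, 95.2% were 600 bp or wider in replicate 1. Both selections shared 515 of the 979 regions (52.6%), which matched 520 of the 562 (92.5%).

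**Figure D1:**
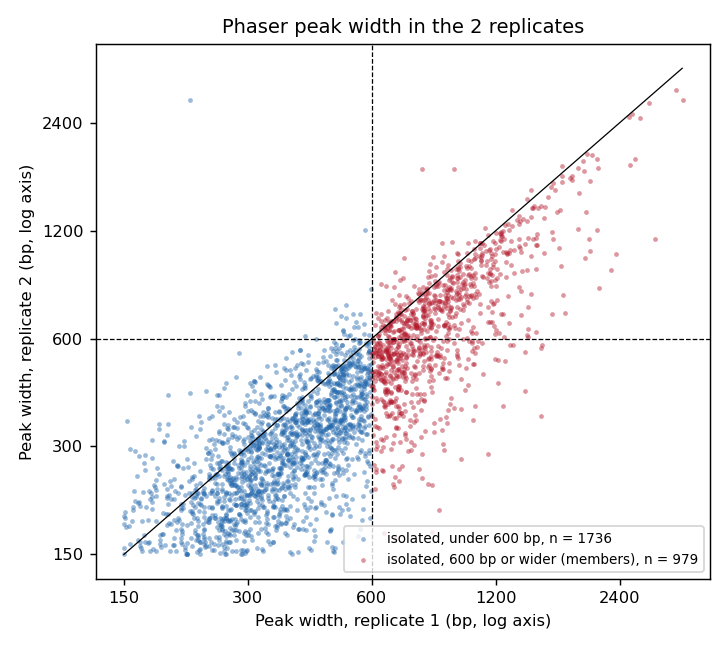
Peak width in replicate 1 (horizontal, bp, log axis) against the replicate 2 peak with the largest overlap (vertical, bp, log axis) for the 979 regions (red) and the 1736 isolated narrow sites (blue). Dashed lines mark 600 bp and the solid line equal width. Red points lie mostly below the solid line, and 552 of them lie above the horizontal dashed line, as do 23 blue points.

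Most regions met a single peak in replicate 2, but 112 (11.4%) met more than 1 and 5 of those met 3. Over all reproducible autosomal peaks 4.69% met more than 1 and 0.245% met 3, and among isolated narrow sites 13 of 1736 did. The divided regions were wide in replicate 1, with a median of 1064 bp against 797 bp for the 867 others. Their largest-overlap replicate 2 peak had a median width of 572 bp, and the widths of all their replicate 2 peaks summed to a median of 815 bp. Counted by summed widths, 594 of the 979 regions (60.7%) reached 600 bp in replicate 2, where the share over all reproducible autosomal peaks was 23.2%.

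The pile at the summit was high. The number of ChIP reads over each summit was recovered from the authors' fold enrichment and p (see the account of the processing), and these reads are fragments over 1 base, not library depth. In replicate 1 the regions held a median of 178 reads at the summit (quartiles 144 and 219, range 65 to 283). In replicate 2 the median was 153 (quartiles 123 and 196, range 56 to 283). The medians averaged 166 ± 17.7 reads (SD, n = 2 replicates), again over regions chosen by replicate 1 width. The highest values of the regions, 283 in each replicate, were also the highest of the whole lists. Across all reproducible autosomal peaks the medians were 121 and 104 reads, and for isolated narrow sites 104 and 90.

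Fold enrichment gave the same order of groups. The authors' fold had a median of 7.87 in replicate 1 (range 2.20 to 16.5) and 6.14 in replicate 2 (range 2.18 to 15.2), and the SD between these 2 medians was 1.22 (n = 2 replicates). Over all reproducible autosomal peaks the medians were 5.47 and 4.33, and for isolated narrow sites 4.79 and 3.85. A −log10 q of 10 or more in replicate 2 was reached by 849 regions (86.7%), while 51.0% of all reproducible autosomal peaks reached it. Replicate 1 values come from the list in which width was judged, and width and reads went together there (Spearman rho = 0.46 over the 979 regions, a description of regions that share a library). In replicate 2 that rho was 0.58.

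The regions made up most of the highest summits in replicate 2. Of its 100 autosomal peaks with the most reads, all with 242 or more, 86 overlapped one of the regions. Of the 500 highest, 383 (76.6%) did, and they took in 379 of the 979 regions (38.7%). Over the whole list of 3501 autosomal peaks the share was 31.3%. At the other end, 54 regions (5.52%, against 33.6% of all reproducible autosomal peaks) held 100 reads or fewer in replicate 1. Their median width fell from 726 bp in replicate 1 to 367 bp in replicate 2, and 8 of the 54 were 600 bp or wider there.

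Width in replicate 2 differed between the regions and isolated narrow sites also where their summits were of like height. The groups were split by replicate 1 width. Widths of the replicates went together, with a Spearman rho of 0.67 over the regions and 0.64 over narrow sites. The direction of the difference was thus largely set by the rule, and only its size at like reads is described. Among peaks with 126 to 150 reads in replicate 1, the regions had a median replicate 2 width of 561 bp (n = 143) and narrow sites 359 bp (n = 255). Their replicate 2 summits were close, with medians of 120 and 116 reads. With 176 to 200 reads in replicate 1, the median widths were 649 bp (n = 155) and 440 bp (n = 56), and replicate 2 reads 162 and 160. Replicate 2 peaks of 600 bp or wider then made up 60.6% of the regions (94 of 155) and 1.79% of narrow sites (1 of 56). In the highest class compared, 201 to 225 reads, they made up 67.9% of 131 regions and 0 of 24 narrow sites, which allows a share of up to 12.5% by counting error (3 counts of 24).

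**Figure D2:**
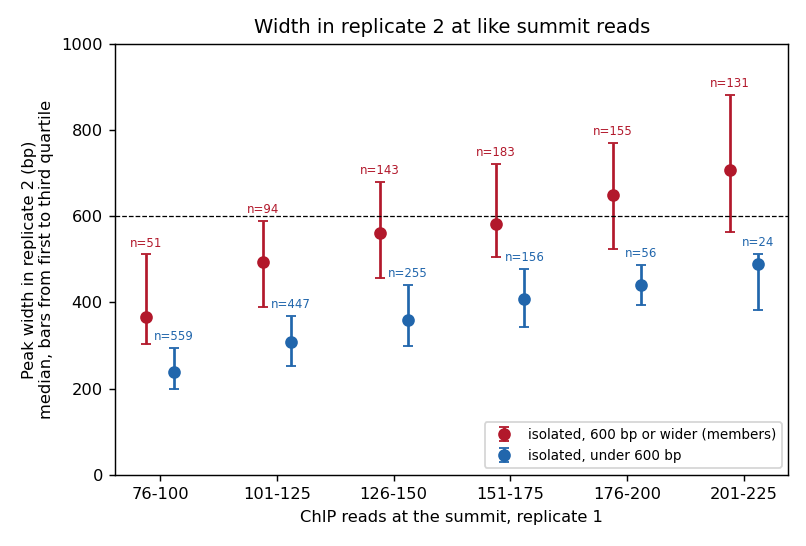
Peak width in replicate 2 (vertical, bp) in classes of ChIP reads at the replicate 1 summit (horizontal) for the regions (red) and isolated narrow sites (blue). Points are medians, bars run between the lower and the upper quartile, and n is the number of peaks. The groups were split by replicate 1 width. In each of the 6 classes the red median is above the blue one, from 367 against 238 bp at 76 to 100 reads to 708 against 490 bp at 201 to 225 reads.

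Summit reads ranked the regions nearly alike in both cultures, and fold enrichment did so less closely. Across the 979 regions, Spearman's rho between the replicates was 0.97 for reads, 0.88 for −log10 q, 0.71 for fold and 0.67 for width. The background that the peak caller set against each summit had a rho of 0.53. These are descriptions of regions that share their libraries, and reads, fold and background come from the same deposited values. For isolated narrow sites the rho was 0.92 for reads and 0.65 for fold.

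Replicate 1 had more reads at the summit in 941 of the 979 regions (96.1%), against 91.0% of all reproducible autosomal peaks. Background is in the caller's scaled pileup units and not in reads, with its own scale in each library. The lowest background a list allows was 3.32 in replicate 1 and 4.35 in replicate 2. A ratio of backgrounds thus compares values on unlike scales, and no difference at the regions is read from it. The median ratio of replicate 1 to replicate 2 was 1.13 for reads, 0.765 for background and 1.27 for fold. Over all reproducible autosomal peaks these medians were close to those values, at 1.14, 0.792 and 1.24. The ratio of reads was nearer to 1 at the highest summits. Its median was 1.17 in the 288 regions with a mean of over 100 to 150 reads, 1.15 over 150 to 200, 1.10 over 200 to 250, and 1.03 in the 75 regions above 250. No peak of either list exceeded 283 reads, and the part of that limit in the narrowing ratio was not tested.

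**Figure D3:**
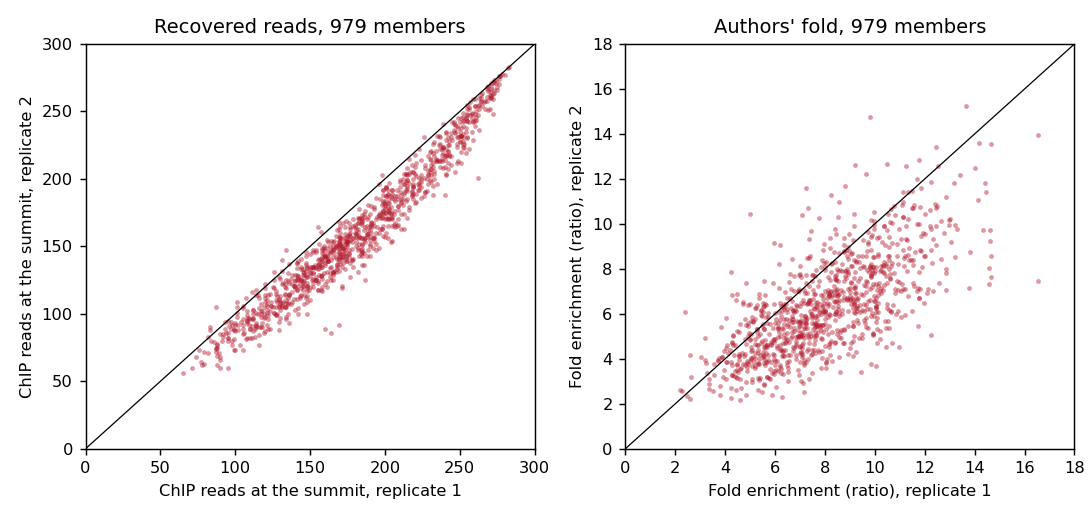
Left, recovered ChIP reads at the summit in replicate 1 (horizontal) and replicate 2 (vertical) for the 979 regions. Right, the authors' fold enrichment (ratio) of the same regions. Points of reads form a narrow band below the line of equal values that meets it near 283 reads, and points of fold scatter widely.

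Fold and reads parted where the background was high. Both reads and background were worked out from the fold and p, so at like reads a low fold means a high background by construction. Reads are whole counts and background is in scaled pileup units, so reads divided by background do not give the fold. Regions with 250 reads or more in replicate 1 numbered 114 (11.6%, against 4.08% of all reproducible autosomal peaks), and their fold ran from 2.26 to 16.5 over backgrounds of 34 down to 3.60. In 6 of the 114 the fold was under 5, with a median background of 22.0, where the median over all 979 regions was 5.40. The 3 with the lowest fold, picked after their values were seen, begin with chr3L:3405902-3406555. It held 270 and 265 reads in replicates 1 and 2, with backgrounds of 34 and 33 in scaled units, and its fold was 2.26 and 2.56. At chr2L:13081762-13082585 the reads were 261 and 244 and the fold 3.18 and 3.97. At chr2L:13124760-13125459 they were 263 and 255, and the fold 3.36 and 3.10. These 3 would be among the weaker regions by fold and are among the higher ones by reads, in each replicate. The background was at the lowest value its list allows under 13 regions in replicate 1 and 15 in replicate 2 (1.33% and 1.53%, against 1.69% and 1.78% of all reproducible autosomal peaks).

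The strongest regions by the mean rank of −log10 q over both lists were spread over 2R, 3R and 3L. First was chr2R:18876671-18877695, with a fold of 16.5 and 14.0 in replicates 1 and 2 (15.2 ± 1.83, SD, n = 2) and 260 and 259 reads. It was 1025 bp wide in replicate 1 and 996 bp in replicate 2. Second was chr2R:14898056-14898757, with a fold of 13.7 and 15.2, 264 and 262 reads, and the summit on the same base in both replicates. After it came chr3R:16329184-16329880, with a fold of 14.7 and 13.5 and 262 and 247 reads. The last of these was 697 bp wide in replicate 1 and 791 bp in replicate 2, so great height did not always go with great width.

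The next was chr3L:9087863-9089326, the best on its arm, with a fold of 14.4 and 11.4 and 268 reads in each replicate. At chr3R:20487617-20488991 the fold was 13.2 and 11.8, and at chr3R:15775517-15777251 it was 14.6 and 9.71, over backgrounds of 4.43 and 8.10. The reads of the latter were 271 and 269, near the highest value of either list. At chr3R:9998199-10000101 the reads were the highest of these 10, with 280 and 277, and its fold was 11.7 and 11.99. The remaining 3 were chr3R:25437313-25438813 (14.4 and 11.8-fold), chr2R:12557089-12558057 (14.3 and 9.74-fold) and chr2R:5676685-5678370 (12.4 and 13.4-fold). The best on 2L was chr2L:3403335-3404820, with a fold of 12.5 and 12.6 and 255 and 252 reads.

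The 5 widest regions had high summits, and their fold varied. At chr3L:8052816-8056221, 3406 bp wide in replicate 1, replicate 2 had 2 peaks of 3410 bp in sum. Its reads were 276 in each replicate, and its fold was 6.72 and 6.19 over backgrounds of 11 and 13.7. At chr2R:2916206-2919493, 3288 bp wide, the fold was 11.1 and 10.3, and at chr2L:20845245-20848158, 2914 bp wide, it was 8.82 and 7.70. In the latter, replicate 2 showed 2 peaks that summed to 2268 bp. At chr2R:20031812-20034632, 2821 bp wide, the fold was 13.2 and 8.54 and replicate 2 had 1 peak of 2715 bp. The fifth was chr3L:13412539-13415230, 2692 bp wide, with a fold of 11.8 and 7.12. All 20 regions of 2000 bp or more were 600 bp or wider in replicate 2, and they held at least 200 reads in replicate 1 and 157 in replicate 2.

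The 3 regions with the poorest mean rank were wide in replicate 1 alone. They were chr2R:17586579-17587323 (2.47 and 2.33-fold), chr2L:10833511-10834191 (2.65 and 3.21-fold) and chr3R:19047056-19047847 (2.20 and 2.60-fold). Their widths in replicate 1 were 745, 681 and 792 bp, and in replicate 2 they were 400, 167 and 286 bp. The value of 167 bp was the narrowest among the replicate 2 peaks with the largest overlap, 1 per region. After it came chr3R:22282787-22283427 with 172 bp, chr2R:9922789-9923627 with 173 bp, chr2L:6608940-6609812 with 199 bp and chr3R:21947209-21947820 with 229 bp. Of these 5, the reads in replicate 2 ran from 56 to 97, below the first quartile of the regions.

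Summits of the regions fell close together in the 2 replicates. The median distance was 13 bp, with quartiles of 5 and 28 bp. In 51 regions (5.21%) both summits lay on the same base, which was not counted for other peaks. Summits within 10 bp were seen in 435 regions (44.4%, 41.3 to 47.6), against 35.9% of all reproducible autosomal peaks and 32.7% of isolated narrow sites. Within 50 bp the shares were 89.3% for the regions, 85.5% for all and 87.3% for narrow sites. Within 100 bp the order was the other way, with 95.9% for the regions and 98.1% for narrow sites. In like classes of replicate 1 reads, from 76 to 100 up to 201 to 225, the median distance was 28, 27.5, 15, 15, 11 and 9 bp for the regions and 21, 18, 15, 12, 11.5 and 13.5 bp for narrow sites. It was thus larger for the regions in 3 of the 6 classes, smaller in the 2 highest and equal in 1.

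**Figure D4:**
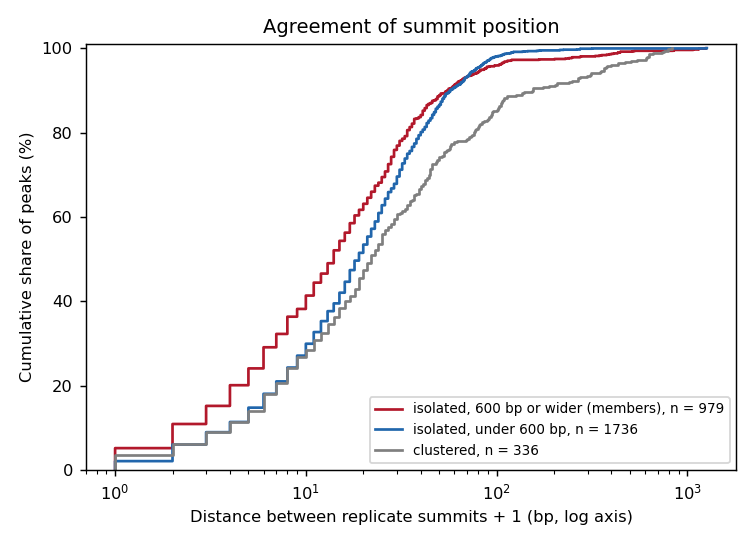
Cumulative share of peaks (vertical, %) by the distance between replicate summits plus 1 bp (horizontal, log axis) for the regions (red), isolated narrow sites (blue) and clustered sites (grey). The red curve is highest up to about 50 bp, where 89.3% of the regions are included, and lies below the blue one at 100 bp.

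In 25 regions (2.55%) the summits were over 200 bp apart, against 0.518% of isolated narrow sites (9 of 1736) and 8.93% of clustered sites. The share over all reproducible autosomal peaks, these groups included, was 2.09%. Of these 25, 13 met 2 or 3 peaks in replicate 2. At chr2R:10210648-10212392, 1745 bp wide, the summits were 1255 bp apart, the largest distance, and replicate 2 had 2 peaks. The distance is to the replicate 2 peak with the largest overlap, and the summit of the other, with 185 reads against 183, lay 19 bp from that of replicate 1. At chr3R:5923104-5925458, 2355 bp wide, they were 1150 bp apart and at chr3R:25615498-25617471, 1974 bp wide, 1143 bp apart, each also with 2 peaks in replicate 2. There the other replicate 2 peak was the higher one, with 257 against 201 reads and 211 against 188, and its summit lay 24 and 0 bp from that of replicate 1. At chr2R:3558624-3560355, replicate 2 had 1 peak of 1699 bp, and the summits were 851 bp apart. When the replicate 2 peak with the highest −log10 q was taken in place of the one with the largest overlap, 21 regions had summits over 200 bp apart and the largest distance was 1074 bp.

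The remaining one of these 5 regions, chr3R:383386-384179, differed from them. It was 794 bp wide in replicate 1, and its replicate 2 peak was 1780 bp wide with the summit 1074 bp away, outside the replicate 1 peak. The nearest other reproducible Phaser summit in replicate 1 was 1073 bp away, just past the limit for isolation, in the region chr3R:382392-383341. Both regions met the same replicate 2 peak, whose summit lay 1 bp from that of the neighbour, so the replicate 2 values of chr3R:383386-384179 are those of the neighbouring summit. It was the only region whose replicate 2 summit lay outside its replicate 1 peak.

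The summit lay near the middle of the peak in most regions, which did not set them apart from other peaks. Its position was at a median of 48.9% of the width from the left end in replicate 1 (quartiles 39.7% and 59.0%) and 49.5% in replicate 2 (quartiles 39.2% and 59.6%). Over all reproducible autosomal peaks the quartiles were 40.1% and 59.4% in replicate 1, and 40.0% and 59.1% in replicate 2. For isolated narrow sites they were 41.3% and 58.8%, and 41.4% and 57.8%. Summits of the regions were thus somewhat less central than those of narrow sites, with no test of the difference. Across the regions the positions had a Spearman's rho of 0.56 between replicates, and across isolated narrow sites 0.29. These correlations are descriptions with no test.

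Some regions had a weak neighbour that only replicate 1 showed. By the rule no other reproducible summit lay within 1000 bp, but peaks of replicate 1 that were absent from replicate 2 were not barred. Such a peak had its summit within 1000 bp in 121 regions (12.4%, 10.4 to 14.6), against 8.35% of all reproducible autosomal peaks and 6.45% of isolated narrow sites. Within 2000 bp the shares were 21.7%, 15.0% and 10.8%. The 124 neighbours within 1000 bp were low, with a median of 62 reads and a median width of 206 bp, near the 66 reads and 219 bp of all 1376 autosomal peaks seen in replicate 1 alone. With 176 to 200 reads at the summit, the share was 11.6% for the regions and 16.1% for narrow sites (9 of 56), and with 126 to 150 reads 9.79% and 6.67%. The difference over all sites thus did not hold in every class of reads. Peaks of replicate 2 alone were near 16 regions (1.63%, against 1.29% of all).

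On a larger scale the regions were spaced over kilobases. The nearest other reproducible Phaser summit was a median of 6.02 kb away (quartiles 2.47 and 14.4 kb), and 7.08 kb for isolated narrow sites. A neighbour within 2000 bp was present for 185 regions (18.9%, against 25% of all reproducible autosomal peaks, where clustered sites count, and 14.5% of isolated narrow sites). The nearest summit of another of the 979 regions was a median of 20.2 kb away. In the densest 200 kb of each arm there were 11 regions on 2L, 8 on 2R, 11 on 3L and 12 on 3R. The last of these ran from summit 5111625 to summit 5309621 and held 15 reproducible Phaser peaks in all. The longest stretch without one of the regions was 948 kb, on 3R between summits 23118646 and 24067107, and it held 17 reproducible Phaser peaks of other kinds.

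All 4 arms carried the regions, which made up between 32.7% and 40.7% of the isolated sites of an arm. Counts were 198 on 2L, 229 on 2R, 201 on 3L and 351 on 3R. Arm 3R held 35.9% of the regions (32.9 to 38.9), near the 34.4% it held of all reproducible autosomal peaks. Density was 8.98 per Mb on 2L, 11.0 on 2R, 8.55 on 3L and 12.7 on 3R, over the span from the first to the last peak of any list. Of isolated sites, the wide ones made up 34.4% on 2L (30.7 to 38.4), 40.7% on 2R (36.7 to 44.8), 32.7% on 3L (29.1 to 36.5) and 36.5% on 3R (33.5 to 39.6). The intervals of 2R and 3L came close without overlapping, and those of the other pairs overlapped. Median replicate 2 width was 637 bp on 2L, 656 bp on 2R, 644 bp on 3L and 626 bp on 3R.

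Saft was absent from the regions by the rule, and it was seldom near them. The nearest Saft summit of any list was a median of 31.6 kb away, and 33.9 kb for isolated narrow sites. A Saft summit lay within 5 kb of 87 regions (8.89%, 7.26 to 10.8), against 15.9% of all reproducible autosomal peaks, which include those that overlap Saft, and 10.1% of isolated narrow sites. Counting only Saft peaks found in all 4 lists, 29 regions (2.96%) had one within 5 kb, against 7.36% of all reproducible autosomal peaks and 3.23% of isolated narrow sites. Within 20 kb the shares were 34.2% for the regions, 37.9% for all and 32.9% for narrow sites. The median distance and these shares thus differed little between wide and narrow isolated sites, with no test of the difference.

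**Figure D5:**
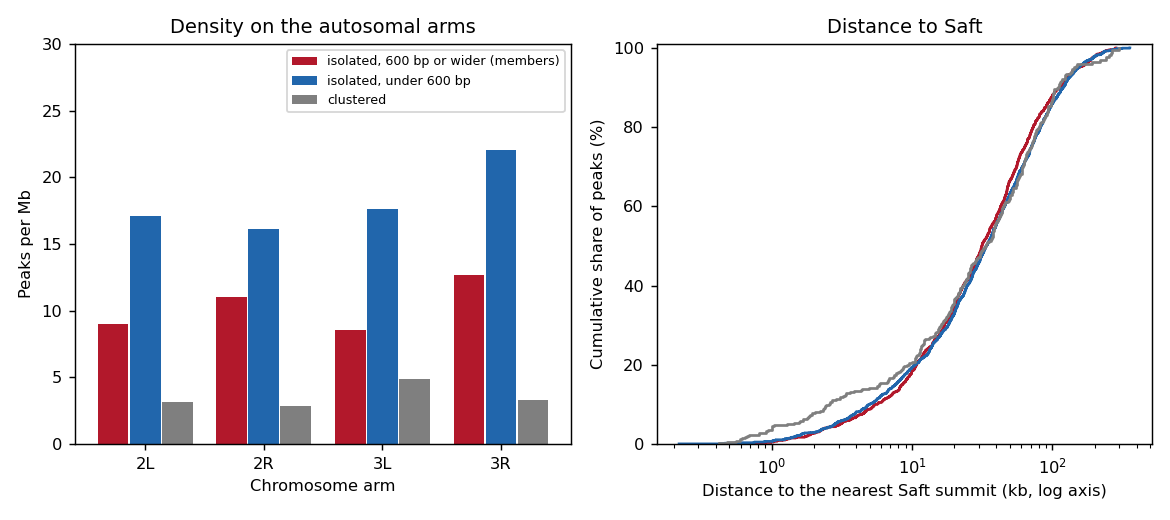
Left, peaks per Mb (vertical) on each autosomal arm for the regions (red), isolated narrow sites (blue) and clustered sites (grey). Right, cumulative share of peaks (vertical, %) by distance from the nearest Saft summit of any list (horizontal, kb, log axis) in the same colours. The regions are densest on 3R, at 12.7 per Mb, and the red and blue curves on the right run close together, with 34.2% and 32.9% reached at 20 kb.

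Within 1000 bp of a Saft summit lay 5 regions (0.511%), against 0.691% of isolated narrow sites (12 of 1736). The share of 7.21% over all reproducible autosomal peaks includes those that overlap Saft, which the rule barred from the regions. At chr2R:16354374-16355289, where Phaser fold was 11.8 and 8.82, all 4 Saft lists had a summit 906 to 930 bp away. The Saft fold there was 3.88 and 4.35 in clone 9C and 4.42 and 2.23 in clone 4H. At chr3L:5027199-5027845 both lists of clone 9C had a summit, 596 and 570 bp away with a fold of 2.09 and 3.33, and clone 4H had none within 5 kb. At the other 3, a single Saft list had a summit within 5 kb, at 516 bp for chr2R:12194412-12195307, 742 bp for chr3L:1112818-1113540 and 987 bp for chr3L:8694974-8696287. The Saft fold at those 3 summits was 3.36, 3.04 and 2.19.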

How the data were processed

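Anti-FLAG ChIP and input DNA of S2 cells were sequenced. The cells had been fixed for 10 min with 1% formaldehyde and their chromatin sheared to fragments of 200 to 1000 bp, per the labels' protocols. Per the submitters' processing notes the build was dm3 and the tools were MACS2 2.1.2.1, bedtools 2.27.1, Bowtie 1.2.2 and Trim Galore 0.6.2, with neither order nor settings given. The 6 deposited lists, 1 per ChIP library and not pooled, are in narrowPeak format. Fold enrichment is the authors' linear ratio of pileup over background at the summit. The authors' −log10 p and q belong to the summit as well, and the deposited score is the whole part of 10 times −log10 q and was not used. Library depth is unknown.

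Starts are printed 1-based. The replicate 2 value of a region is that of the peak with the largest overlap, for named regions too, where the design had the peak of highest −log10 q, and this choice met another peak in 14 of the 979. Reads and background at Phaser summits were worked out from each peak's deposited fold and −log10 p, taking fold as pileup plus 1 over background plus 1, p as a Poisson tail, and pileup as whole reads times 1 factor per library (0.289 and 0.325). Background was left in the units of the scaled pileup. Within 0.03 reads, 100% of peaks came out whole, against 7.83% and 8.70% with a wrong factor, and 9 and 7 peaks allowed more than 1 number. The selection and the recovery were checked on simulated lists.

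The regions, limits and comparisons were chosen with earlier results of these data known. No test was run: values of the regions stand beside those of all 3259 reproducible autosomal peaks, with 95% Wilson intervals on shares. Named regions are the 10 best by mean rank of −log10 q over both Phaser lists, the best of each arm, the 5 widest, the 3 weakest, 3 on each side of the width limit, and 5 each with the largest summit distance, the narrowest replicate 2 peak and the nearest Saft summit. Promoter shares and sequence words were not run, as no dm3 genome was used here. Scripts ran under Python 3.11.15 using scipy 1.17.1, pandas 2.3.3, numpy 2.4.6 and matplotlib 3.10.9.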

Additional observations from a re-analysis of the deposited data

How the results depend on the processing

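The 7 main values were recomputed under 110 combinations with 19 alternative settings, and 94 stayed within 1.5 times the count, the interval of the share, the interval of the median distance, or 1 SD between replicates. The SDs come from regions chosen by replicate 1 width, so they are not spread between replicates alone. A width limit of 800 bp left 517 regions with a median of 176 reads in replicate 2, and 78.9% of them were 600 bp or wider there, against 43.7% with a limit of 500 bp. That share was 61.9% with reciprocal overlap of 50%, 63.8% with −log10 q of 10 or more, and 60.7% with replicate 2 widths summed. With the replicates exchanged, 562 regions had 95.2% of 600 bp or wider, a fold of 8.53, 200 reads and a summit distance of 11 bp in the other replicate. The share with Saft within 5 kb was 13.1% with the Saft lists ignored in the selection, 2.35% with −log10 q of 10 or more, and 2.96% for Saft peaks in all 4 lists, which leave fewer Saft peaks. Leaving out each library in turn gave 551 regions (without Phaser replicate 1) to 986, a Saft share of 7.52% to 9.26% and a share on 3R of 35.8% to 36.5%. The other values were recomputed only without each Saft list, with both Phaser lists kept. They were a share of 600 bp or wider of 56.2% to 56.5%, a fold of 6.13 to 6.14, 153 to 154 reads and a summit distance of 13 bp. Their dependence on a single Phaser library was thus not assessed by leaving it out. Without a Phaser replicate, isolation was judged among all peaks of the other list, and values that need both replicates could not be given. The settings with only 1 replicate 2 peak per region, and with the replicate 2 peak of highest −log10 q, were chosen after seeing the data. No paired analysis was possible because no groups of samples were compared and the results come from no test. Unknown depth limits any reading of peak width and number between replicates.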
